A study of Drosophila melanogaster with 42 samples.

Results

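In *Drosophila melanogaster* females that were made to express MSL2, 354 sites on the X chromosome carried a ChIP-seq peak of MSL3 with no peak of MSL2 nearby. The sites were chosen by the positions of measured peaks: a peak of the female MSL3 list on the X chromosome was taken when no peak of the female MSL2 list lay within 500 bp of it, edge to edge. The 354 sites are 32.2% of the 1100 X-linked MSL3 peaks of these females and part of 1546 MSL3 peaks in all. The other 746 X-linked MSL3 peaks, which had MSL2 within 500 bp, and 237 MSL3 peaks without MSL2 on the other chromosome arms served as comparisons. What female MSL2 and MSL3 showed at the sites is therefore a description, while the female MSL1 list and the 3 male lists were not used to choose them.

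The male-specific lethal (MSL) complex raises transcription of the single X chromosome of males. It consists of the scaffold MSL1, the RING and CXC domain protein MSL2, the chromodomain protein MSL3, the histone acetyltransferase MOF, the RNA helicase MLE and the noncoding RNAs *roX1* and *roX2*. The complex is recruited at high-affinity sites (HAS) with GA-rich recognition elements, where MSL2 and the zinc finger protein CLAMP bind, and is found in addition over the bodies of active genes, where MSL3 is known to recognise methylated lysine 36 of histone H3. Females normally lack the complex, because SXL represses *msl-2* translation.

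The study asked how the N-terminus of MSL1 takes part in recruitment of the complex, and the lists used here cover the lines with wild-type MSL1. M1[WT]+MSL2 females were *msl-1* null (*msl-1*L60/*msl-1*γ269) and had 1 copy each of Ubi:msl-1WT and Ubi:msl-2WT-FLAG. M1[WT] males had the same *msl-1* null background, Ubi:msl-1WT on both homologs and MSL2 from their own gene. Both transgenes were driven by the ubiquitous *Ubi-p63E* promoter and inserted at 86Fb, so sex, transgene dose and the source of MSL2 cannot be told apart between the lines. The male MSL3 libraries have a genotype field that names the line with MSL2, but their titles say M1[WT], and they were treated as M1[WT] here. Chromatin came from whole adult flies, 3 days old according to the labels, so the cell types that carried a peak are not known.

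Each of the 6 lists gives 1 set of peaks for a protein and line, made from 2 replicate libraries or, for male MSL1, from 1. The lists hold no read counts, which leaves the depth of a peak unknown and every value without an error between replicates. The lists differed in length and reach: on the X chromosome, 5.27% of the sequence lay within 500 bp of a female MSL1 peak, 29.4% near a male MSL1 peak, 20.2% near a male MSL2 peak and 22.8% near a male MSL3 peak. Intervals around shares are 95% Wilson intervals, those around differences are Newcombe intervals, and both cover counting error across sites only, since neighbouring sites are not independent.

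Sequences around the summits, the points of highest enrichment, are shown first because recognition elements of the complex are rich in runs of purines. Each line gives 100 bases of the plus strand of X in the RefSeq sequence with dm6 coordinates, with the longest run of purines or of pyrimidines in capitals. The first 4 are the strongest peaks without and with male MSL2 for which the window held no annotated UTR, at chrX:15137390-15137489 beyond the 3′ end of *RpL37-1*, chrX:18239445-18239544 beyond that of *upd2*, chrX:6524358-6524457 near *CG3918* and chrX:16683943-16684042 near *Axs*. The next 2 are the strongest in coding exons away from start sites, at chrX:7290050-7290149 in *unc-119* and chrX:10859675-10859774 in *CG2186*.
RpL37-1: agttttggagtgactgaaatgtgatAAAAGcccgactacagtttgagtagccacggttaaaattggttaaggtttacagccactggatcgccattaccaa
upd2: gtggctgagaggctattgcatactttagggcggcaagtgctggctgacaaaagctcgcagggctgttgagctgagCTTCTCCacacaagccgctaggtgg
CG3918: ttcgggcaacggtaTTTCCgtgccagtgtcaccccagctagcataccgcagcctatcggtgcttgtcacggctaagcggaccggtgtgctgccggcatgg
Axs: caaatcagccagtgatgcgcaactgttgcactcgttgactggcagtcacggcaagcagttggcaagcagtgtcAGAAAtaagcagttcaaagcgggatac
unc-119: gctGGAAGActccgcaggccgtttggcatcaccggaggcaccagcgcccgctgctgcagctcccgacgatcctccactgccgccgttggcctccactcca
CG2186: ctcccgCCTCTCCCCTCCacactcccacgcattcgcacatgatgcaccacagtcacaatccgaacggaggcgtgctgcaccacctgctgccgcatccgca

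The longest runs in these 6 windows had between 5 and 12 bases, and none of the windows held GAGAGAGA or TCTCTCTC. For contrast, the next lines show a site in an intron of *ct*, which encodes a homeodomain protein, at chrX:7627087-7627186. It is 1 of the 2 sites with this repeat, and the window is centred on the repeat, which stands there in lower case. The capitals in this line mark another run of purines beside the repeat. They also show 2 X-linked MSL3 peaks with MSL2 that hold the repeat, at chrX:7320969-7321068 in *CG1677* and chrX:10224796-10224895 in *CG34408*. The contrast was chosen for the repeat after the motif counts were known. In 200 bases around the summit, the median longest run was 8 bases both over all sites and over all X-linked peaks with MSL2. It was 9 bases in all windows of this length tiled over X.
ct: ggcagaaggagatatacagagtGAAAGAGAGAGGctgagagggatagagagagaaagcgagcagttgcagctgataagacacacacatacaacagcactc
CG1677: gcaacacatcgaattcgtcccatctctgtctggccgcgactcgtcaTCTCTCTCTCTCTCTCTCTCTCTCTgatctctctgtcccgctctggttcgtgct
CG34408: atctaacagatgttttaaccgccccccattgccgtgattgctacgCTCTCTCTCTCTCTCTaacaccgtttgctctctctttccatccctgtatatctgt

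The repeat GAGAGAGA, searched on both strands within 200 bases centred on the summit, was present at 2 of 354 sites (0.565%, interval 0.155 to 2.04%). Among X-linked MSL3 peaks with MSL2 it was present at 26 of 746 (3.49%), in all windows of this length tiled over X at 1.53%, and in tiles that lay wholly in coding exons at 0.24%. Base composition was near that of coding sequence. Median GC content of the 200 bases was 58.0% at the sites, 57.5% at X-linked MSL3 peaks with MSL2, 56.5% in coding tiles and 42.0% in all tiles. The promoter motifs TATCGATA, bound by DREF, and GGTCACAC, the core of the motif bound by M1BP, were found at 1 and at 4 sites. The first was present in 0.703% and the second in 0.490% of all tiles, and in 8.06% and 5.20% of the 200 bases centred on X-linked start sites. A match is a description of the letters, not a binding site, and a window without one says only that these letters are not in it.

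The sites were weak and broad MSL3 peaks. The fold enrichment over nonspecific IgG that the authors list at the summit ranged from 1.67 to 7.71 with a median of 2.17, compared with a median of 2.53 for X-linked MSL3 peaks with MSL2 and 2.92 for MSL3 peaks without MSL2 on the other arms. Ranked by −log10 p within the list of 1546, the sites had a median rank of 1065.5, and the strongest stood at rank 66. Their median width of 788.5 bp was near the 897 bp of X-linked peaks with MSL2, whereas the peaks on the other arms were narrow, with a median of 314 bp. These values come from the list that chose the sites and are given without a test. Near the edge of the rule, sites close to female MSL2 lay 508 bp from it in *CG11696* and 521 bp in *z*, with folds of 2.18 and 2.08. The 3 excluded peaks farthest from MSL2 lay 481 bp away in *Larp7*, 490 bp in *PGAP1* and 497 bp in *CG15459*, with folds of 2.05, 2.26 and 1.79. Values of female MSL3 on both sides of the rule thus overlapped.

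In M1[WT] males a large share of the sites had MSL3 and MSL2. The shares depended on how many peaks of the male lists were accepted, more for MSL2 than for MSL3. A male MSL3 peak lay within 500 bp of 331 of 354 sites (93.5%, interval 90.4 to 95.6%), beside 96.5% of all X-linked MSL3 peaks of females. A male MSL2 peak lay within 500 bp of 273 sites (77.1%, interval 72.5 to 81.2%), beside 89.8% of all X-linked MSL3 peaks. A male MSL1 peak was found at 326 sites (92.1%), where the share of all X-linked MSL3 peaks was also 96.5%. With the 50% of each male list that had the highest −log10 p, 151 sites (42.7%) had male MSL2. With each list cut to the length of the shortest, 44 (12.4%) had it. The differences from X-linked peaks with MSL2 were then −38.6 and −43.9 points. By the same steps, male MSL3 was left at 321 and 257 sites (90.7% and 72.6%), male MSL1 at 309 and 98 (87.3% and 27.7%). In the full lists, 333 sites (94.1%) had male MSL2 or MSL3, beside 97.4% of all X-linked MSL3 peaks. Both were present at 271 sites (76.6%), beside 89.0%. Neither was present at 21 sites, out of 29 such peaks among all 1100.

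Compared with X-linked MSL3 peaks with MSL2, the gap was wide for male MSL2 and narrow for male MSL3. Of the peaks with MSL2, 95.8% had male MSL2, so the share at the sites was lower, with a difference of −18.7 percentage points (interval −23.5 to −14.3). For male MSL3 the share was 98.0% and the difference −4.49 points (interval −7.65 to −2.0). For male MSL1 it was 98.5% and −6.44 points (interval −9.78 to −3.79). Compared with MSL3 peaks without MSL2 on the other arms, the order was the reverse for male MSL2: only 46.8% of those peaks had it, 30.3 points fewer than the sites (interval 22.4 to 37.7). Male MSL3 was present at 94.1% of them, and the interval of that difference spanned 0 (−4.45 to 3.73 points). Of the 6110 male MSL2 peaks, 2351 lay on X, and the reach of the male lists on the other arms was not measured. The peaks on the other arms were also narrower, so backgrounds for a match within 500 bp are unlike.

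**Figure D1:**
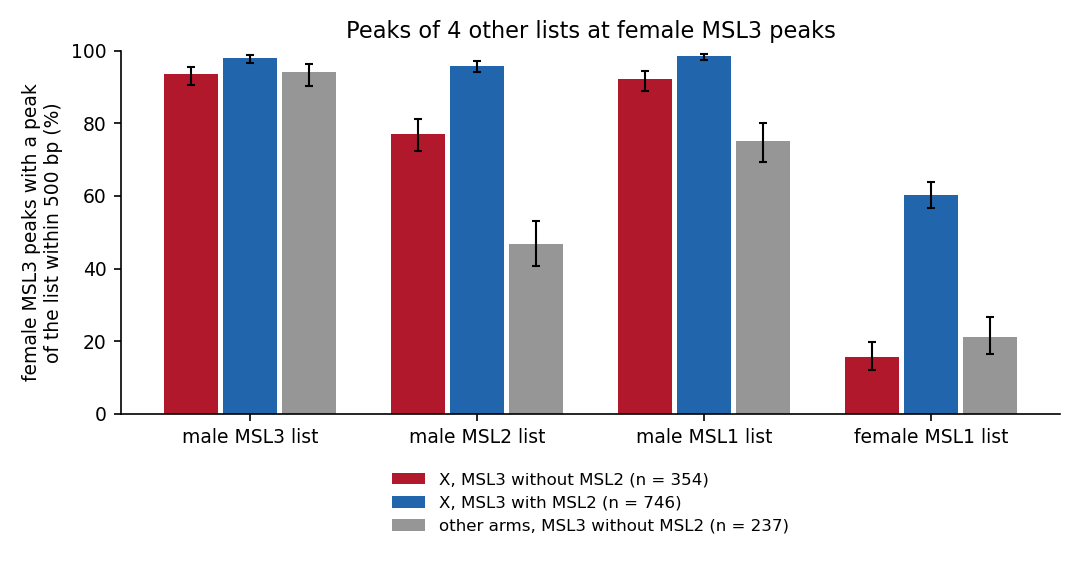
Share of female MSL3 peaks (percent, vertical axis) with a peak of the male MSL3, male MSL2, male MSL1 or female MSL1 list within 500 bp, for the 354 X-linked sites without MSL2 (red), 746 X-linked peaks with MSL2 (blue) and 237 peaks without MSL2 on the other arms (grey). Bars start at 0 and whiskers are 95% Wilson intervals. The sites lie between the other sets for male MSL2 (77.1%) and well below the X-linked peaks with MSL2 for female MSL1 (15.5%).

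The same lists separated the sites from X-linked peaks with MSL2 by the strength of the male peaks. Where a male MSL2 peak was present, its fold enrichment had a median of 2.77 at the sites (10th to 90th percentile 2.00 to 9.27) and of 9.12 at X-linked peaks with MSL2 (2.42 to 44.5). In the male MSL2 list of 6110 peaks, the median rank was 2823 at the sites and 530 at the peaks with MSL2. Male MSL3 differed less, with median folds of 10.0 and 14.9 and median ranks of 461 and 256 among 6129 peaks. Male MSL1 had median folds of 3.15 and 5.67. The quartile ranges overlapped for every list, slightly for male MSL2 and more for male MSL3.

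**Figure D2:**
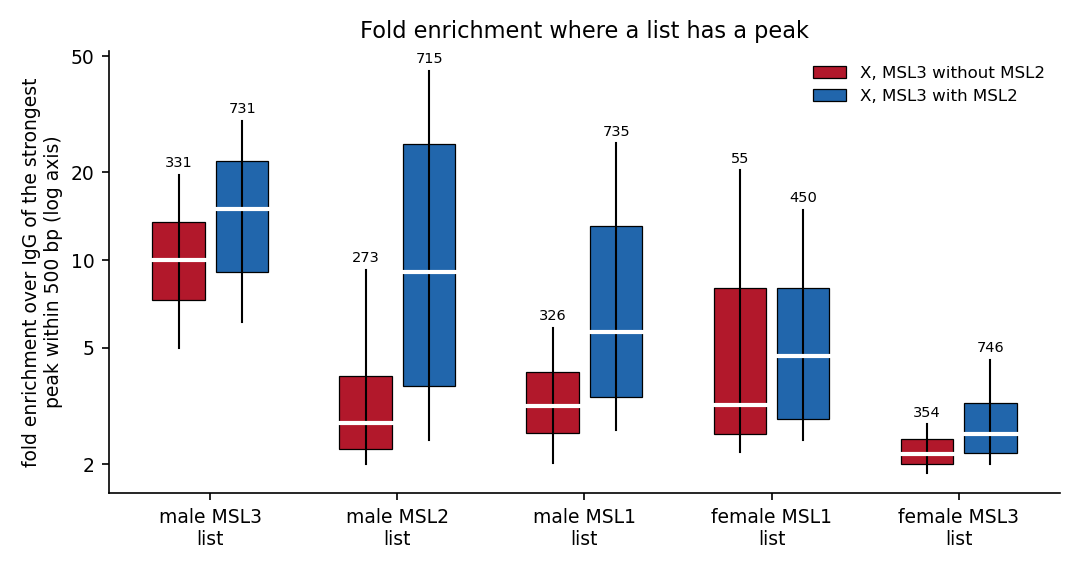
Fold enrichment over IgG (log axis) of the strongest peak within 500 bp in each list, where one exists, for X-linked sites without MSL2 (red) and X-linked peaks with MSL2 (blue). Boxes span the quartiles, white lines are medians, whiskers run from the 10th to the 90th percentile and numbers above are peaks counted. The medians of male MSL2 are 2.77 and 9.12. Folds of different lists are not on a common scale, and those of the female MSL3 list are values that were used to choose the sites.

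Because the sites were weaker MSL3 peaks, all 1100 X-linked peaks were divided into 3 groups of equal size by −log10 p of female MSL3. In the strongest group, male MSL2 was present at 32 of 46 sites (69.6%, interval 55.2 to 80.9%) and at 314 of 320 peaks with MSL2 (98.1%). In the middle group it was present at 118 of 138 sites (85.5%) and 97.4% of peaks with MSL2, and in the weakest group at 123 of 170 sites (72.4%) and 90.4%. The share at the sites was thus lower within each group, and the strongest sites did not have male MSL2 more often than the others. Male MSL3 was present at 91.3%, 96.4% and 91.8% of the sites from the strongest to the weakest group. In the strongest group, the sites without male MSL3 all lay in the last 500 kb of X, described below. They lacked male MSL2 as well, which lowers both shares of that group.

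The 4 lists that were not used to choose the sites combined in few ways. All 3 male peaks without female MSL1 were found at 216 sites (61.0%), all 4 peaks at 50 (14.1%), male MSL1 with male MSL3 but nothing else at 49 (13.8%), and no other peak at 13 (3.67%). Of X-linked peaks with MSL2, 443 (59.4%) had all 4, 263 (35.3%) the 3 male peaks alone, 17 (2.28%) male MSL1 with male MSL3 alone and 5 (0.67%) no other peak. Over all X-linked MSL3 peaks, 1.64% had no other peak. The most common state of the sites was hence the second most common state of peaks with MSL2.

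Male MSL3 peaks covered the sites, as they did X-linked peaks with MSL2. All 331 sites with male MSL3 within 500 bp were overlapped by it, and 320 of the 354 (90.4%) were covered over their whole width, against 95.8% of X-linked peaks with MSL2 and 85.7% of peaks without MSL2 on the other arms. The 265 overlapping male peaks were wide, with a median of 3107 bp and a highest width of 26305 bp, at the site in *Vps26* (chrX:1874037-1875666), a gene for a retromer subunit. For 97 sites, the overlying male MSL3 peak also covered a female MSL2 peak. Male MSL2 overlapped 248 sites (70.1%) and covered 133 (37.6%) wholly, against 92.8% and 66.4% of X-linked peaks with MSL2. At the remaining sites of the 273 it lay only beside the site.

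Named sites show both patterns. The strongest lay beyond the 3′ end of *RpL37-1*, which encodes a protein of the large ribosomal subunit, 1927 bp from its start site at chrX:15137262-15137643. It had a female MSL3 fold of 7.71, a male MSL3 fold of 13.7 and a male MSL1 fold of 2.55, and no MSL2 peak closer than 1046 bp in males or 1871 bp in females. The second, at chrX:18239399-18239890 near *upd2*, a gene for a JAK/STAT ligand, had folds of 6.92 for female and 7.16 for male MSL3, with the nearest male MSL2 peak 28795 bp away. Sites at *DAAM*, which encodes a formin, at *tko*, which encodes a mitochondrial ribosomal protein, at *CG43658* and at *CG3038* had female MSL3 folds of 6.21, 4.46, 4.28 and 4.15 and male MSL3 folds of 7.60, 6.44, 6.73 and 4.18. None of these 6 sites had male MSL2 or female MSL1 within 500 bp, and 5 of them had a male MSL3 fold above 6.

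The other 6 of the 12 strongest sites had male MSL2. Next to the start sites of *CG3918* (chrX:6524177-6525915) and of *Axs* (chrX:16683803-16684092), which acts in chromosome segregation, female MSL3 folds were 6.18 and 6.68. The male MSL2 folds there were 3.57 and 2.74, the male MSL3 folds 10.9 and 7.62, and the female MSL1 folds 5.99 and 7.27. At *Shmt*, which encodes serine hydroxymethyltransferase, the female MSL3 fold of 4.07 came with a male MSL2 fold of 3.17 and a male MSL3 fold of 27.8. The sites in coding exons of *unc-119* and *CG2186* had female MSL3 folds of 3.20 and 2.66, male MSL2 folds of 6.61 and 5.45 and male MSL3 folds of 14.1 and 13.7. A further site, the next by female MSL3 among those with female MSL1, lay in a coding exon of *CG10555* (chrX:8400972-8402970). It had folds of 2.70 for female MSL3, 2.53 for female MSL1, 4.91 for male MSL2 and 14.6 for male MSL3. The male MSL2 folds given for *unc-119* and *CG10555* belong to stronger neighbouring peaks, which end before the site, at chrX:7288576 and chrX:8400713. A weaker male MSL2 peak overlapped or touched both sites, and its fold is not given here. The remaining site of the 12, in the 28S rRNA pseudogene *28SrRNA-Psi:CR45859*, had a fold between 1.99 and 3.13 in all 5 lists in which it has a peak. The sequence around its summit had 66 near-identical copies elsewhere in the reference, a limit described below for the proximal end of X.

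Female MSL1 was rare at the sites. It lay within 500 bp of 55 sites (15.5%, interval 12.1 to 19.7%), beside 45.9% of all X-linked MSL3 peaks and 60.3% of those with MSL2, a difference of −44.8 points from the latter (interval −49.6 to −39.3). On the other arms, 21.1% of MSL3 peaks without MSL2 had it, and the interval of that difference spanned 0 (−12.1 to 0.713 points). In the 3 groups by strength of female MSL3, the share at the sites was 41.3%, 17.4% and 7.06%, against 84.1%, 49.8% and 34.0% of peaks with MSL2. The 55 sites with female MSL1 had male MSL2 in 50 cases and male MSL1 in 54, and their median distance to a HAS was 2202 bp, against 7795 bp for the 299 without it.

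The 81 sites without male MSL2 differed from the 273 with it in where they lay. Their median distance to the nearest HAS was 19995 bp against 5422 bp, their median width 536 against 885 bp, and 47 of 81 (58.0%) against 232 of 273 (85.0%) had the summit in a coding exon. The median folds of female MSL3 were 2.21 and 2.17. A male MSL3 peak was present at 60 of the 81 (74.1%, interval 63.6 to 82.4%) and at 271 of the 273 (99.3%), with median folds of 6.68 and 10.5.

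Of the 21 sites with neither male MSL2 nor male MSL3, 7 lay at the proximal end of X, the strongest among them. The last 500 kb of the chromosome, which borders the heterochromatin and holds ribosomal RNA gene fragments, held 10 sites and 4 X-linked MSL3 peaks with MSL2. Of these 10 sites, 7 had no male peak of any kind, and all lay at least 12613 bp from female MSL2 and 72675 bp from a HAS. Their female MSL3 folds ran from 2.06 to 3.62. The 6 strongest sites without male MSL2 and MSL3 were all among them, led by chrX:23530735-23531137 with a fold of 3.58 and chrX:23224032-23224508 with 3.62. For 7 of the 10, at least 50% of the 200 bases around the summit had a copy elsewhere in the reference. Identity to the copy was at least 90%. Sites with such a copy include that in *28SrRNA-Psi:CR45859*, which had all 3 male peaks, but not chrX:23530735-23531137, which had none. A copy was found for 8 of all 354 sites and for 0 of the 746 X-linked peaks with MSL2 (Wilson interval up to 0.512%). How reads from such copies were placed was not measured, and what the copies contribute to the peaks was not tested. Without the last 500 kb, 328 of 344 sites (95.3%) had male MSL3 and 271 (78.8%) male MSL2.

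Beyond the proximal end, 7 sites had no peak of any other list. Of these, 6 lay in coding exons of *CG32751* and *Idgf4*, which encodes an imaginal disc growth factor, in the 5′ UTR of *Fas2*, a gene for a cell adhesion protein, and between genes nearest to *CG14621*, *CG12679* and *CG4607*. The female MSL3 folds of these 6 ran from 2.11 at *CG4607* to 2.59 at *CG14621*, all within the range of the other sites. Of the 8 sites with near-identical copies, only that at *CG14621* lay outside the last 500 kb, with 67 copies.

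The sites lay in coding exons, away from start sites and towards the 3′ ends of genes. The summit fell in a coding exon at 279 sites (78.8%, interval 74.3 to 82.7%), beside 73.6% of all X-linked MSL3 peaks, 71.2% of those with MSL2 and 15.2% of MSL3 peaks without MSL2 on the other arms. Coding exons make up 16.7% of the X sequence. The differences were 7.63 points from X-linked peaks with MSL2 (interval 2.10 to 12.8) and 63.6 points from the other arms (interval 56.8 to 69.2). Introns held 15 sites and 46.7% of the X sequence, 5′ UTRs held 15, 3′ UTRs 16, noncoding exons 2, and 27 lay between genes.

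Start sites were near few of them. The summit lay within 500 bp of an annotated start site at 51 sites (14.4%, interval 11.1 to 18.4%), beside 21.5% of all X-linked MSL3 peaks and 24.9% of those with MSL2. The difference from the latter was −10.5 points (interval −15.1 to −5.51). On the other arms 65.0% of the MSL3 peaks without MSL2 lay near a start site, which made a difference of −50.6 points. The 51 sites near start sites were narrower than the other 303, with median widths of 365 and 890 bp. They had male MSL2 at 72.5% (interval 59.1 to 82.9%) against 77.9% (interval 72.9 to 82.2%), and female MSL1 at 27.5% (interval 17.1 to 40.9%) against 13.5% (interval 10.1 to 17.8%).

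Within protein-coding genes of at least 2 kb, which held 290 sites, counts rose from 31 in the first of 5 equal parts of the gene through 36, 57 and 82 to 84 in the last. The last 2 parts held 57.2% of the sites (interval 51.5 to 62.8%), 47.6% of X-linked peaks with MSL2 and 33.9% of peaks without MSL2 on the other arms. The difference from X-linked peaks with MSL2 was 9.63 points (interval 2.60 to 16.5).

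**Figure D3:**
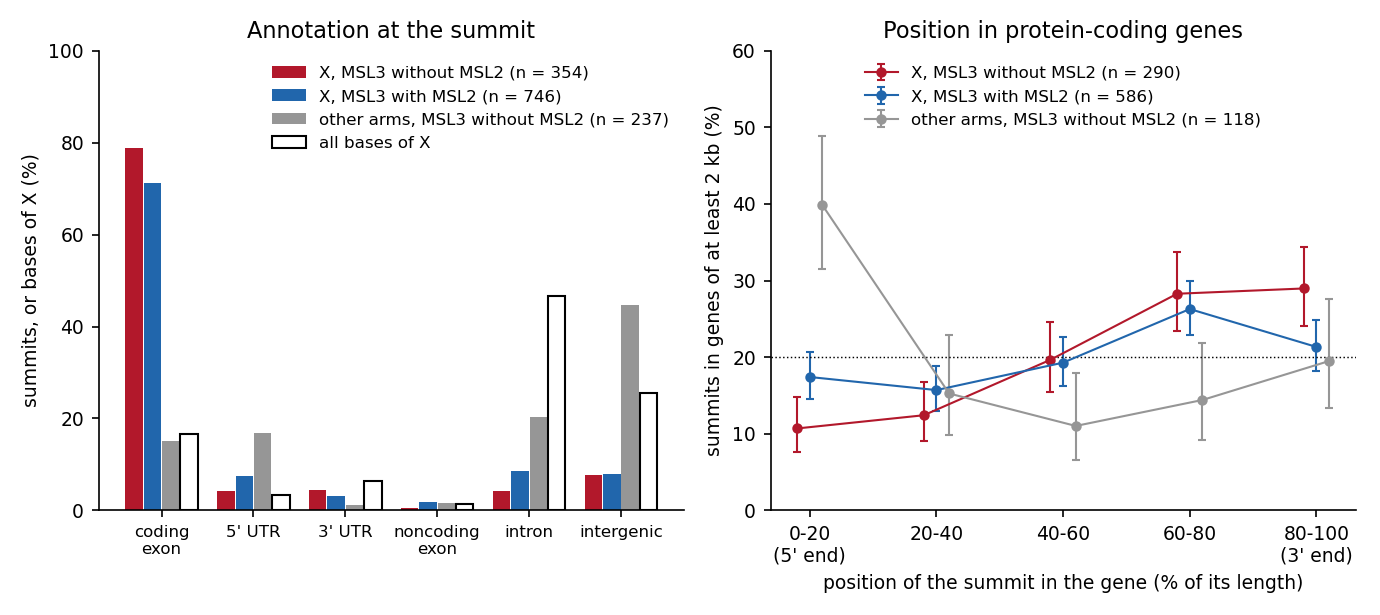
Left, share of summits (percent) in each annotation class for 354 X-linked sites without MSL2 (red), 746 X-linked peaks with MSL2 (blue) and 237 peaks without MSL2 on the other arms (grey), with the share of X sequence in white. Right, share of summits in each of 5 equal parts of protein-coding genes of at least 2 kb, from the 5′ to the 3′ end, with 95% Wilson intervals and a dotted line at 20%. Coding exons held 78.8% of the sites, and the last 2 parts of genes held 57.2%.

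Some sites shared a gene. The 324 sites with the summit in a protein-coding gene lay in 252 genes, of which 53 held more than 1. The same count for X-linked peaks with MSL2 is not given here. For 185 of the 324 (57.1%), a female MSL2 peak lay elsewhere in the same gene: on the 5′ side of the site only in 119 cases, on the 3′ side only in 31, and on both sides in 35. In these genes a median of 68.9% of the length lay 5′ of the site, so the 5′ side also offered more sequence.

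The gene with most sites, named after its values were seen, was *RhoGAPp190*, which encodes a GTPase-activating protein. It held 7 sites over 13416 bp, with female MSL3 folds from 2.23 to 2.74. A single male MSL3 peak of 7975 bp with a fold of 31.0 covered 6 of them, and another with a fold of 14.0 covered the seventh. The female MSL2 peak nearest to each lay between 685 and 6146 bp away. In *su(sable)*, a gene for an RNA-binding protein, 4 sites with folds from 2.03 to 2.43 lay under a single male MSL3 peak of 5848 bp with a fold of 10.3, with male MSL2 folds of 2.30 to 2.82. Such neighbours come from the same stretch of chromatin and are not independent observations.

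Distance to female MSL2 went with what else was found. The nearest female MSL2 peak lay at a median of 2498 bp, with a range from 508 to 428842 bp. Male MSL3 was present at 73 of 73 sites (100.0%) from 0.5 to 1 kb, at 98.7% from 1 to 2 kb, 95.9% from 2 to 5 kb, 91.3% from 5 to 10 kb and 76.7% (interval 64.6 to 85.6%) of the 60 sites beyond 10 kb. Male MSL2 was present at 84.9%, 84.4%, 83.7%, 73.9% and 50.0% (interval 37.7 to 62.3%) in the same bins. The bin beyond 10 kb includes the 10 sites of the last 500 kb of X, of which 3 had male MSL3 and 2 male MSL2. Female MSL1 went from 32.9% in the nearest bin to 6.67% in the farthest. The median female MSL3 fold changed little over these bins, from 2.13 to 2.26.

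**Figure D4:**
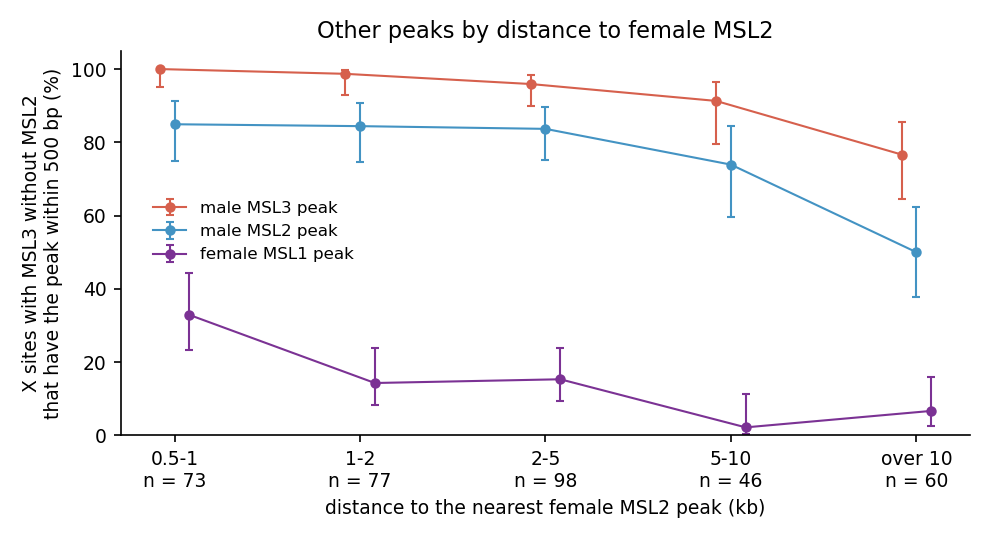
Share of the 354 sites (percent) with a male MSL3 (orange), male MSL2 (blue) or female MSL1 (purple) peak within 500 bp, by distance to the nearest female MSL2 peak in kb, with 95% Wilson intervals and the number of sites in each bin. Male MSL2 goes from 84.9% in the nearest to 50.0% in the farthest bin, which includes the 10 sites of the last 500 kb of X. The distance comes from a list that was used to choose the sites.

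Few of the sites were HAS, but they lay nearer to HAS than most of the X sequence. Of the sites, 10 overlapped 1 of the 301 HAS (2.82%), against 219 of 746 X-linked peaks with MSL2 (29.4%). Within 10 kb of a HAS lay 222 sites (62.7%, interval 57.6 to 67.6%), beside 74.7% of all X-linked MSL3 peaks, 80.4% of those with MSL2 and 20.9% of the X sequence. The difference from peaks with MSL2 was −17.7 points (interval −23.5 to −12.0). The median distance was 6405.5 bp at the sites (quartiles 2511 and 16343 bp) and 1462 bp at the peaks with MSL2. The HAS were defined by binding of the complex, so that their overlap with MSL2 peaks is not independent of the rule.

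**Figure D5:**
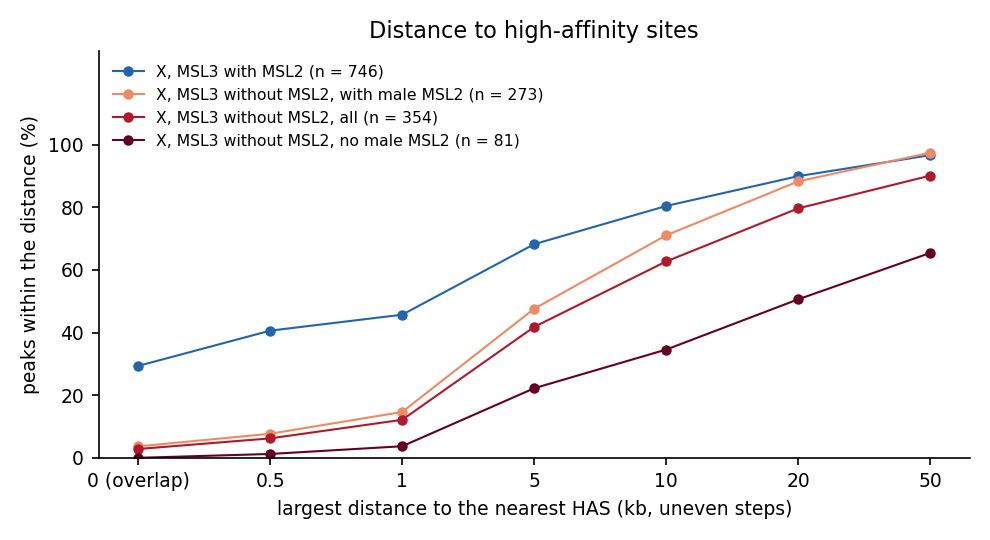
Cumulative share of peaks (percent) within a given distance of the nearest HAS (kb, uneven steps) for 746 X-linked peaks with MSL2 (blue), the 354 sites (red) and the sites with (orange, 273) and without (dark red, 81) male MSL2. At 10 kb the shares are 80.4%, 62.7%, 71.1% and 34.6%.

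Of the genes of the complex and its partners, *roX1*, *roX2* and *mof* lie on X. A site lay within 500 bp of *roX1*, at chrX:3863134-3864847 in a coding exon of the neighbouring gene *yin*. It had a female MSL3 fold of 1.88, and its male MSL2 neighbour, 349 bp away, was the peak over *roX1* with a fold of 219, rank 1 of that list. A count within 500 bp can thus take in a strong neighbouring peak. No site lay at *roX2* or *mof*. Of the 14 X-linked ribosomal protein genes, 4 had a site within 500 bp (28.6%), beside 378 of 2196 X-linked protein-coding genes (17.2%). They were *RpL7A* with 3 sites, *RpL37-1*, and the near-identical neighbours *RpS14a* and *RpS14b*, which share a site between them and whose reads can be hard to assign. The folds of female MSL3 there were 2.01, 1.96 and 2.85 at *RpL7A* and 2.62 at *RpS14a*. All had a male MSL3 peak, with folds between 6.79 and 13.7. None of the 24 X-linked tRNA genes had a site and 2 had an MSL3 peak with MSL2, counts too small to compare.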

How the data were processed

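The 6 peak lists used here (MSL1, MSL2 and MSL3, each in both lines) come from 11 of the 42 libraries in the labels. The other libraries, mutant MSL1 lines included, were not analysed here. Before deposit, reads were trimmed (cutadapt) and aligned to dm6 (Bowtie 2) by the authors, duplicates (Picard) and blacklisted regions were taken out, and MACS2 peaks were called with nonspecific IgG as control. In the labels, IgG libraries come from control flies only. For 5 lists they ran IDR on 2 inputs, with a stricter threshold for pseudoreplicates than for true replicates. The male MSL1 list is MACS2 output without IDR. Per peak, the authors deposited the summit position, its fold over IgG (a ratio) and a −log10 p. IDR lists hold the −log10 p of each input too, and in the 3 female lists the value given for a peak, used here to rank, equals that of the first input at all 905, 2460 and 1546 peaks. The score that the authors deposited, −log10 q and IDR values were not used.

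A peak counted as present within 500 bp, edge to edge, the largest gap in the methods. Among several, the one with the highest −log10 p was used. Start sites and exons came from the Ensembl annotation of BDGP6, whose X chromosome has the length of dm6 (23542271 bp), HAS positions from the study's source data. A copy was a blastn match with 90% identity or more over at least 50% of 200 bases. No p-values were computed, because each list is a single set of peaks with none per library. The members and lists were chosen with earlier results of these data known. Named are the 12 strongest sites by female MSL3 −log10 p, the 6 strongest each without male MSL2 and MSL3, with female MSL1 and with male MSL2, the 3 on each side of the rule's edge, the site with the widest male MSL3 peak, and sites at *mof*, *roX1*, *roX2*, ribosomal protein and tRNA genes; others were named after their values were seen. Some sites that the rule names are not reported here. The functions were tested on simulated data. Software was blastn 2.17.0, bedtools 2.31.1, Python 3.11.15, pandas 2.3.3, numpy 2.4.6, matplotlib 3.10.9 and scipy 1.17.1.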

Additional observations from a re-analysis of the deposited data

How the results depend on the processing

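Of the planned recalculations, 43 left a result within its limits and 24 did not. Counts with a feature had to stay within 1.5 times the count and, as a share, within the interval. The number of sites had to stay within 1.5 times only, differences within their interval and the median HAS distance within its quartiles. With gaps of 0 and 1000 bp the rule took 455 and 281 sites. They were 41.4% and 25.5% of the X-linked MSL3 peaks, outside the interval of 29.5 to 35.0% but within 1.5 times the count. None of the 3 differences from X-linked peaks with MSL2 that were recomputed (male MSL3, male MSL2 and female MSL1) changed sign. No paired analysis was possible because each list is a single set of peaks, with none per library, and for the same reason no replicate could be left out. With the 50% of female MSL3 peaks with the highest −log10 p, 75 sites were left, of which 70 had male MSL3, 57 male MSL2, 65 male MSL1 and 26 (34.7%) female MSL1, 14 lay near a start site and 51 within 10 kb of a HAS. With the 50% of female MSL2 peaks with the highest −log10 p, the rule took 626 sites. With the 50% of each other list with the highest −log10 p, 151 sites had male MSL2, 309 male MSL1 and 35 female MSL1, with differences of −38.6 points for male MSL2 and −34.8 points for female MSL1. With each other list cut to the length of the shortest, 905 peaks, 257 sites had male MSL3, 44 male MSL2 and 98 male MSL1, with differences of −10.6 points for male MSL3 and −43.9 points for male MSL2. Measured from the summit, 250 sites had male MSL2. With a gap of 1000 bp, 160 of 281 sites (56.9%) lay within 10 kb of a HAS. Within 250 and 1000 bp of a start site lay 32 and 96 sites, and within 5 and 20 kb of a HAS 148 and 282. Leaving out the last 500 kb of X, an addition chosen after seeing the data, moved none of the 11 results past these limits.

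The number of sites and the shares with male peaks thus depend on how far down each list peaks are accepted. Absence from a list is no measure of absence of the protein. The depth behind the lists is unknown, and the male MSL1 list comes from 1 library without IDR.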

Other observations

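The sites were spread along X much like the other X-linked MSL3 peaks of females: in 5 equal parts from the distal to the proximal end they made up 33.2%, 32.3%, 28.7%, 36.4% and 29.9% of all X-linked MSL3 peaks. In the deposited female MSL3 list, the −log10 p of the sites in the 2 IDR inputs had medians of 14.3 and 14.1. They differed by a median factor of 1.21, against 1.20 at X-linked peaks with MSL2. Peaks of both sets entered the list by passing IDR on these inputs, so the closeness is no separate measure of replication. Across the 331 sites with male MSL3, Spearman's rho between the −log10 p of female and male MSL3 was 0.26, and across the 273 sites with male MSL2 it was 0.22 between female MSL3 and male MSL2. At X-linked peaks with MSL2 the values were 0.43 and 0.40. These are descriptions across neighbouring sites of the same libraries, which share depth and IgG controls.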
